A study of Mus musculus with 26 samples.

Results

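The set is 38 genes for receptors of serotonin (13 genes), dopamine (4), noradrenaline (2), acetylcholine at muscarinic (3) and nicotinic (15) receptors, and oxytocin (1), out of 18194 genes with a named probe set on the arrays. Members were the genes whose symbol in the platform annotation begins with Htr, Drd, Adra, Adrb, Chrm or Chrn and goes on with a subtype, together with Oxtr; the protease genes that begin with Htra were left out. The set does not hold every known receptor of these families: no Adrb gene is in it, nor are Htr2a, Drd5 and Chrm2, for example. Each gene was read from the probe set with 1 symbol that had the highest mean over all arrays. The members had 68 such probe sets in all, and 22 members had more than 1.

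Serotonin, dopamine, noradrenaline and acetylcholine reach the cortex and hippocampus from small nuclei of the brainstem and basal forebrain, and oxytocin from the hypothalamus. Most of their receptors couple to G proteins: Gs raises cyclic AMP, Gi lowers it and Gq activates phospholipase C. The nicotinic receptors and the Htr3 serotonin receptor are instead ion channels built of 5 subunits. Arrays of dissected tissue report the transcript in cell bodies of the region and not the receptor protein on axons that arrive there.

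Messenger RNA had been measured on Affymetrix arrays of dissected, frozen entorhinal cortex and hippocampus from aged mice. The time was 4 weeks after a lentivirus had been given into the entorhinal cortex. Arrays of mice with a sham lesion carry the same 4 weeks, and their labels name no vector. In each region there were 4 arrays of mice with an amyloid precursor protein (APP) transgene given brain-derived neurotrophic factor (BDNF), 4 of APP mice given green fluorescent protein (GFP), 2 of non-transgenic mice given GFP and 3 of non-transgenic mice with a sham lesion. BDNF is a secreted growth factor of neurons, and GFP is the control protein of the vector. The labels and notes used here do not state the transgenic line, its promoter, the age in months or the vector design, and the labels call the replicates biological.

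The 26 arrays had log2 values between 2.19 and 13.99 with medians of 5.51 to 5.58, and their number limits the precision. Marker genes followed the regional labels: Prox1 and Dsp of dentate granule cells were lower in the entorhinal cortex by log2 differences of -2.37 and -4.76, and the cortical genes Cux2 and Tbr1 were higher by 2.01 and 0.72. Entorhinal array 3 of the APP BDNF group and entorhinal array 2 of the non-transgenic GFP group stood apart, with a mean over 11 myelin genes of 7.14 and 7.33 against 7.97 to 8.86 on the other entorhinal arrays and 9.31 to 9.96 in the hippocampus. On hippocampal sham array 1 the mean over 11 choroid plexus genes was 8.05, while the other hippocampal arrays did not exceed 5.29. Xist, the RNA that silences 1 X chromosome in female cells, was low on 8 of the 16 APP arrays, 2 in each group and region, and high on the other 8 APP arrays and on all 10 non-transgenic arrays. In such bulk tissue, fewer cells of a type and less RNA per cell cannot be told apart.

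Of the 38 members, 29 were bright enough to be tested, and 18 of the 29 differed between the regions, 7 of them higher and 11 lower in the entorhinal cortex than in the hippocampus. Regional differences were common on these arrays: limma called 51.8% of all 14941 genes tested, 20.6% higher and 31.3% lower, at a Benjamini-Hochberg adjusted p under 0.05. The median size of the log2 difference was 0.32 over the 29 members and 0.14 over all genes. The median with its sign was -0.06 over the members and -0.03 over all genes. By coupling, a grouping made after the values were seen, 2 of 3 tested Gs receptors were higher and 1 lower, 2 of 8 Gi receptors were higher and 3 lower, and 2 of 5 Gq receptors were higher and 1 lower. Of 13 tested channel subunits, 1 was higher and 6 were lower. The plot of region differences by family shows Htr4, Htr5b and Chrna7 at the low end and Drd1 at the high end.

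**Figure D1:**
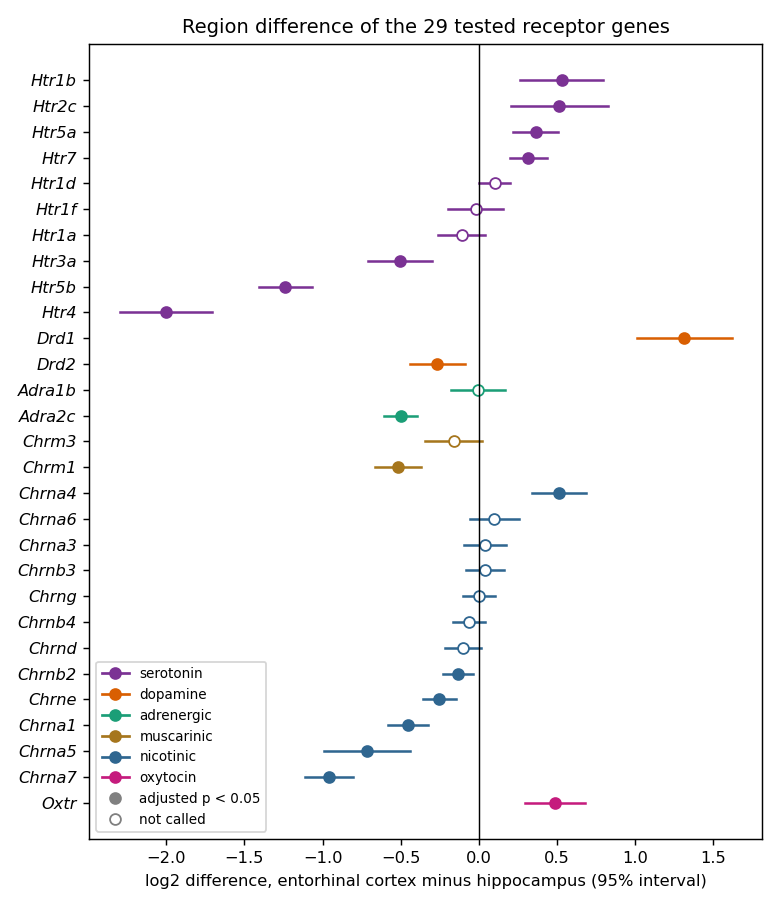
Log2 difference of entorhinal cortex minus hippocampus (x axis) for the 29 tested members (y axis), grouped by transmitter; points are differences, lines 95% intervals, and filled points have an adjusted p under 0.05. Htr4 lies at -2.003 and Drd1 at 1.31.

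Among the serotonin receptors, 10 of 13 were tested, and 4 were higher, 3 lower and 3 not called. Htr4, a Gs-coupled receptor, had the largest difference of all members. Its log2 level was 4.91 to 6.40 on the 13 entorhinal arrays (median 5.74) and 7.29 to 8.17 on the 13 hippocampal arrays (median 7.57). No entorhinal array reached the lowest hippocampal one. The log2 difference was -2.003 ± 0.14 (moderated SE, limma adjusted p = 9.68e-11), and a second, separate probe set gave a called difference of -0.30. Htr5b, a serotonin receptor found in rodents, had 5.09 to 5.56 in the entorhinal cortex (median 5.38) and 6.29 to 6.96 in the hippocampus (median 6.67). The regions again did not overlap, with a difference of -1.24 ± 0.08 (adjusted p = 3.00e-11). Non-overlap of all 13 against 13 arrays was seen for 5 members, 1 higher and 4 lower, against 10.6% of all genes (4% higher and 6.63% lower).

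Htr3a, the obligate subunit of the serotonin-gated channel, was lower as well, with 6.76 to 7.20 (median 6.97) in the entorhinal cortex and 6.75 to 7.90 (median 7.51) in the hippocampus. Hippocampal APP GFP array 2, the lowest of all 26 arrays, and non-transgenic GFP array 2, at 7.14, lay below the highest entorhinal array, so the ranges overlapped. The difference was -0.50 ± 0.10 (adjusted p = 1.50e-04). Its partner Htr3b was not tested, with levels of 3.19 to 3.62 and 3.19 to 3.55 in entorhinal cortex and hippocampus.

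Htr1b, a Gi-coupled receptor known from axon terminals, was higher in the entorhinal cortex, with 6.99 to 8.52 (median 7.78) there and 6.92 to 7.67 (median 7.35) in the hippocampus. Entorhinal levels spread over a wider range (SD 0.46, n = 13) than hippocampal ones (SD 0.23, n = 13), and the difference was 0.53 ± 0.13 (adjusted p = 1.42e-03). These SDs pool the 4 groups of a region, whose means spanned 0.63 in the entorhinal cortex and 0.24 in the hippocampus. Htr2c, a Gq-coupled receptor of neurons and of the choroid plexus, had 9.38 to 11.23 (median 10.38) in the entorhinal cortex and 9.06 to 10.23 (median 9.84) in the hippocampus, a difference of 0.51 ± 0.15 (adjusted p = 6.17e-03). Its highest value, 11.23, was on entorhinal non-transgenic GFP array 2, 1 of the pair low in myelin; without that array the difference was 0.32 (adjusted p = 0.042). With the mean of its probe sets in place of the brightest one the call was lost (0.28, adjusted p = 0.14). On the array with high choroid plexus genes Htr2c was 9.53, within the range of the other hippocampal arrays.

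Htr5a, which couples to Gi, and Htr7, which couples to Gs, differed by 0.36 ± 0.07 (adjusted p = 1.25e-04) and 0.32 ± 0.06 (adjusted p = 7.91e-05). Htr5a ranged over 6.33 to 7.17 in the entorhinal cortex and 6.12 to 6.61 in the hippocampus, and Htr7 over 6.66 to 7.14 and 6.40 to 6.86, so most but not all arrays separated. For Htr1b, Htr2c, Htr5a and Htr7 the second probe set was not called, and that of Htr5a had the opposite sign (-0.14). Htr1a, the Gi-coupled receptor that the raphe uses as its autoreceptor, was not called with a difference of -0.11 ± 0.07 (adjusted p = 0.22). Its dimmer second probe set was called lower, at -0.42. Htr1d and Htr1f had differences of 0.10 and -0.02.

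Drd1, the Gs-linked dopamine receptor, was the member with the largest rise. It had 7.61 to 8.65 (median 8.19) in the entorhinal cortex and 5.99 to 7.51 (median 6.79) in the hippocampus. Every entorhinal array lay above every hippocampal array, and the difference was 1.31 ± 0.15 (adjusted p = 1.29e-07), a fold of 2.48. The second probe set gave 1.12. Drd1 is also a gene of striatal neurons, so a list of striatal markers was read beside it: 4 of 7 were higher and 2 lower, with Gpr6 at 2.55, Penk at 1.11, Rgs9 at -0.48 and Ppp1r1b at -0.22. The mean over that list was 7.63 to 8.04 on entorhinal arrays and 7.19 to 7.56 on hippocampal arrays, and its part in the Drd1 difference was not tested. Drd2, the Gi-coupled counterpart, went the other way at -0.27 ± 0.08 (adjusted p = 0.011), with 4.90 to 5.70 in the entorhinal cortex and 5.45 to 5.99 in the hippocampus. Drd3 and Drd4 were too dim to test, at 3.06 to 3.82 and 3.60 to 4.44 over all arrays.

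Of the adrenergic pair, Adra2c, a Gi-coupled receptor, was lower in the entorhinal cortex, with 7.06 to 7.54 (median 7.26) there and 7.42 to 8.09 (median 7.76) in the hippocampus. The overlap came from non-transgenic GFP array 1 of the hippocampus, at 7.42, and the difference was -0.50 ± 0.05 (adjusted p = 3.89e-08). Adra1b, a Gq-coupled receptor, had a difference of -0.01 ± 0.08. Chrm1, the Gq-coupled muscarinic receptor of forebrain pyramidal cells, had 8.96 to 9.29 (median 9.15) in the entorhinal cortex and 9.34 to 10.25 (median 9.64) in the hippocampus. These ranges did not overlap, with a difference of -0.52 ± 0.07 (adjusted p = 2.05e-06) and -0.65 on the second probe set. Chrm3 was not called (-0.16 ± 0.09), and Chrm4 was not tested (3.81 to 4.55 over all arrays).

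**Figure D2:**
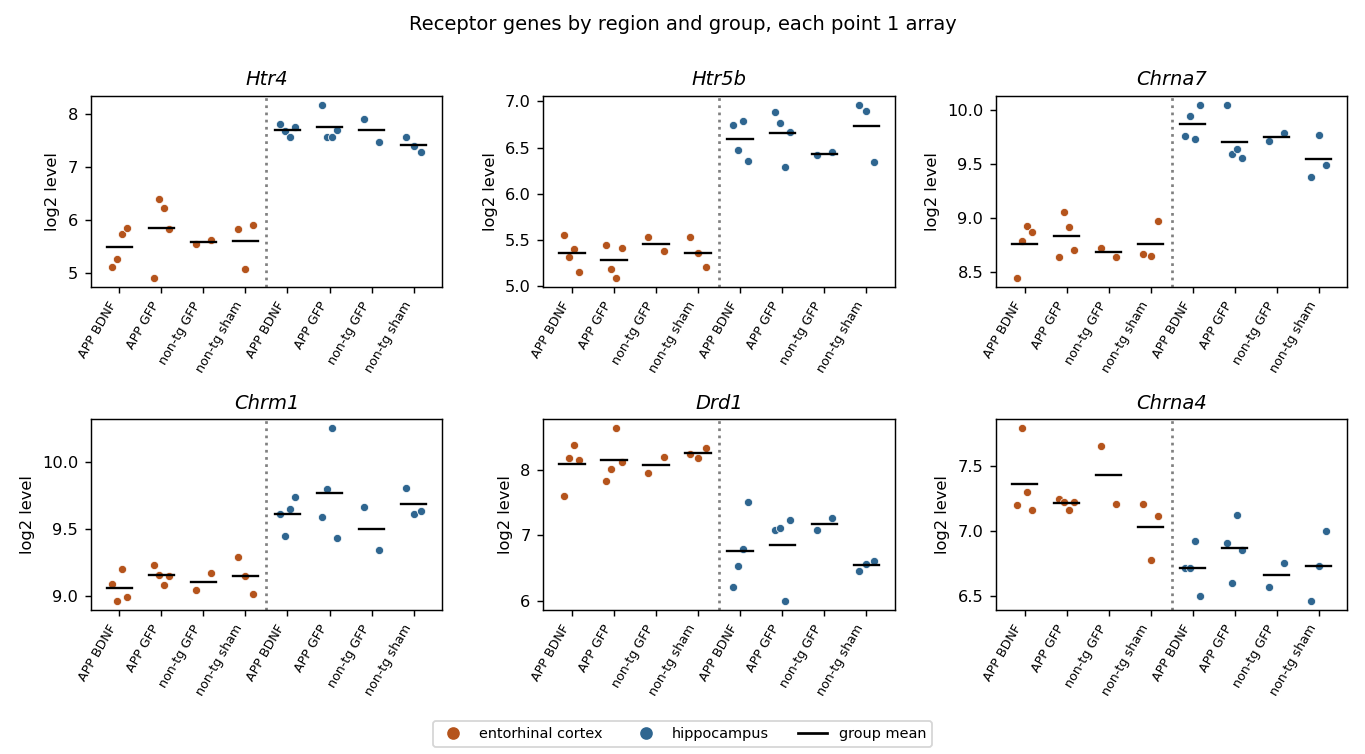
Log2 level (y axis) of 6 members on every array, by group (x axis), with entorhinal cortex left of the dotted line and hippocampus right; points are arrays and short lines group means. Htr4, Htr5b, Chrna7 and Chrm1 are lower on all entorhinal arrays and Drd1 is higher on all of them, while Chrna4 overlaps.

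Nicotinic subunits were the largest family: 12 of 15 were tested, 1 was higher, 5 were lower and 6 were not called. Over all genes tested, 20.6% were called higher and 31.3% lower. Chrna7, which forms a channel on its own, had 8.45 to 9.06 (median 8.73) in the entorhinal cortex and 9.38 to 10.05 (median 9.73) in the hippocampus. The regions did not overlap, and the difference was -0.96 ± 0.07 (adjusted p = 3.10e-10), with -0.37 on the second probe set. Chrna4 and Chrnb2 encode the pair of subunits of the main high-affinity nicotine receptor of the brain, and they differed in opposite directions. Chrna4 had 6.78 to 7.79 (median 7.21) in the entorhinal cortex and 6.46 to 7.12 (median 6.73) in the hippocampus, a difference of 0.51 ± 0.08 (adjusted p = 2.09e-05). Chrnb2 had 6.95 to 7.27 (median 7.18) and 7.06 to 7.41 (median 7.27), a difference of -0.13 ± 0.05 (adjusted p = 0.017). On its brightest probe set the Chrnb2 call rested on single arrays. It was lost without entorhinal non-transgenic GFP array 2 (-0.10) or without hippocampal non-transgenic GFP array 1 (-0.12). A dimmer Chrnb2 probe set was called lower at -0.40, and another gave 0.03 and was not called.

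Chrna5, an accessory subunit, had 4.33 to 5.60 (median 5.03) in the entorhinal cortex and 5.37 to 6.17 (median 5.61) in the hippocampus, a difference of -0.72 ± 0.13 (adjusted p = 9.41e-05), with -1.30 on the second probe set. It lies on chromosome 9 beside Chrna3 and Chrnb4, from 54980827 to 55048953 for the 3 genes in assembly GRCm38.p6. The neighbours did not share its call: Chrna3 had a difference of 0.04 ± 0.07 and Chrnb4 of -0.06 ± 0.05. Chrna6 and Chrnb3, which are neighbours on chromosome 8, had 0.10 and 0.04. The subunits known from the muscle receptor include Chrna1 at -0.45 ± 0.06 (adjusted p = 2.28e-06) and Chrne at -0.25 ± 0.05 (adjusted p = 2.44e-04), while Chrnd (-0.10) and Chrng (0.00) were not called. The probe sets of these subunits were dim, at 4.21 to 5.10 for Chrna1 and 4.52 to 5.32 for Chrne over all arrays. Chrna2, Chrna9 and Chrnb1 were not tested.

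Oxtr, the Gq-coupled oxytocin receptor, had 7.15 to 8.37 (median 7.48) in the entorhinal cortex and 6.64 to 7.47 (median 7.10) in the hippocampus. Its highest level, as for Htr2c, was on entorhinal non-transgenic GFP array 2. The difference was 0.49 ± 0.09 (adjusted p = 1.43e-04), and the second, dimmer probe set gave 0.10 and was not called. The oxytocin and vasopressin genes read beside it (Oxt, Avp, Avpr1a and Avpr2) had 0 of 4 called, with Oxt at -0.07 ± 0.04.

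Among the 18 called members, 13 had another probe set. For 8 of the 13 at least 1 other probe set was called in the same direction, for the remaining 5 (Htr1b, Htr2c, Htr5a, Htr7 and Oxtr) none was called, and 0 had one called in the opposite direction. Those 5 make up most of the 7 members higher in the entorhinal cortex; the other two are Drd1 and Chrna4. Among the 8 is Htr4, whose second probe set, with a mean of 3.995, lay below the filter at 4.33. Averaging all probe sets of a gene moved several region differences by over 1.5 times while they stayed called: Htr4 to -1.15, Adra2c to -0.19, Htr1b to 0.30, Htr5a to 0.11, Htr7 to 0.19 and Oxtr to 0.30. The 9 untested members had means of 3.38 (Drd3) to 4.18 (Chrm4), below the filter at 4.33. Htr1d, the dimmest tested member, had 4.35. Levels of different probe sets do not rank the transcripts: means over all arrays ran from 10.05 (Htr2c) to 3.41 (Htr3b) for serotonin, 7.48 (Drd1) to 3.38 (Drd3) for dopamine, 7.51 (Adra2c) to 5.05 (Adra1b) for adrenergic, 9.39 (Chrm1) to 4.18 (Chrm4) for muscarinic and 9.25 (Chrna7) to 3.97 (Chrnb1) for nicotinic receptors.

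Myelin genes moved with the region: 11 of 11 were lower in the entorhinal cortex, with a median log2 difference of -1.35. Their relation to the members within a region was computed after the values were seen, over 13 arrays per region and 58 relations. Over the entorhinal arrays, Oxtr was higher where myelin genes were lower (Pearson r = -0.74, permutation p = 0.0055, adjusted p = 0.11; Spearman rho = -0.85, permutation p = 0.00058, adjusted p = 0.034). Without both arrays farthest from the median, r was -0.89 over 11 arrays. Htr2c ran the same way (r = -0.65, permutation p = 0.017, adjusted p = 0.25; rho = -0.73, permutation p = 0.0061, adjusted p = 0.088), with r = -0.78 over 11 arrays. In the hippocampus, Chrna7 did so (r = -0.79, permutation p = 0.0017, adjusted p = 0.048; rho = -0.80, permutation p = 0.0017, adjusted p = 0.048), with r = -0.81 over 11 arrays. With the myelin mean as a covariate, added after the values were seen, the region differences of Oxtr and Htr2c were -0.09 (adjusted p = 0.71) and -0.47 (adjusted p = 0.13), so both calls were lost and the signs turned. The calls of Drd2 (-0.06, adjusted p = 0.84), Chrnb2 (-0.05, adjusted p = 0.73), Chrna5 (-0.63, adjusted p = 0.12) and Htr7 (0.22, adjusted p = 0.20) were lost as well, leaving 12 of the 18 members called. Those of Htr4, Htr5b, Chrna7, Chrm1 and Drd1 kept their direction and call, Drd1 at 0.84 (adjusted p = 0.045), while Htr1b, Htr5a and Chrne were larger at 0.997, 0.58 and -0.43. Myelin content and region run together, and the myelin means did not overlap (at most 8.86 in the entorhinal cortex, at least 9.31 in the hippocampus). This covariate therefore alters the region difference itself, in either direction, and why calls were lost was not tested.

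**Figure D3:**
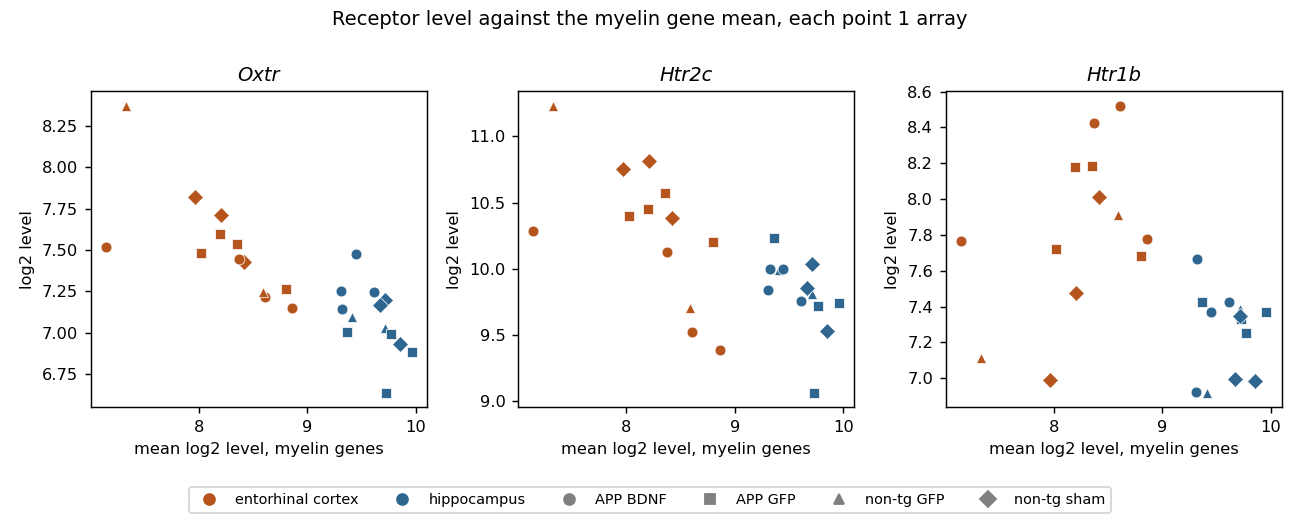
Log2 level of Oxtr, Htr2c and Htr1b (y axis) against the mean log2 level of 11 myelin genes (x axis) on each of 26 arrays; colour marks region and shape marks group. Oxtr and Htr2c fall as the myelin mean goes up within the entorhinal arrays, and entorhinal non-transgenic GFP array 2 has the highest Oxtr (8.37) and Htr2c (11.23).

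The sequence upstream of the start was read for Drd1 and Chrna7, a higher and a lower member whose regions did not overlap, and for Oxtr. Promoter sequences came from RefSeq, GRCm38.p6, and 30 of the 38 members had an entry. Capitals mark a GC box, the letters GGGCGG on either strand. Each run is the 250 bases before an annotated start, 5′ to 3′, and all 3 genes are on the minus strand. Drd1 has 2 such starts. The first run of Drd1 is chr13:54055659-54055908, directly upstream of the annotated gene, and the second is chr13:54054781-54055030, inside it. For Chrna7 the run is chr7:63212527-63212776, directly upstream of the gene, and for Oxtr chr6:112489826-112490075, which lies inside the annotated gene.
Drd1, first start: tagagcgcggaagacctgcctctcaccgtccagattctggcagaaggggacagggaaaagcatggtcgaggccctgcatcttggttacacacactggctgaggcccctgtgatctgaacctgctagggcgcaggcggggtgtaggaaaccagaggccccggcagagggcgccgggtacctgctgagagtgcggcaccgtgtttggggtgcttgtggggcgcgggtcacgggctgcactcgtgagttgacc
Drd1, second start: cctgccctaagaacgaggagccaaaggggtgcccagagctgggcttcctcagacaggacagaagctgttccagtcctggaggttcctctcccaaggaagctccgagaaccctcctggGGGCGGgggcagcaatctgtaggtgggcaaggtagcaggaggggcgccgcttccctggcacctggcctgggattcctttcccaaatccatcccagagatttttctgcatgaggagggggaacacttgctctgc
Chrna7: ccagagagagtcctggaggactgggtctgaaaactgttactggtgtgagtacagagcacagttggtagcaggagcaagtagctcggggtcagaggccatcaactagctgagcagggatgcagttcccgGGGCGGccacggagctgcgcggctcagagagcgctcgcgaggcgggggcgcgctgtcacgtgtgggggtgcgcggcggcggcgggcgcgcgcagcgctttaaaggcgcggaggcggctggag
Oxtr: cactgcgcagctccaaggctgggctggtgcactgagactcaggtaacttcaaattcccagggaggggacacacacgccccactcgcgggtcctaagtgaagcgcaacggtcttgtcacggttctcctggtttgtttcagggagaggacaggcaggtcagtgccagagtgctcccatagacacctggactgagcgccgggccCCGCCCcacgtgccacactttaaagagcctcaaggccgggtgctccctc
A GC box was found in 14 of the 30 members (46.7%), against 35.4% of 27025 genes. A gene was counted if any of its starts held the letters, as Drd1 did at the second start alone. A GC box was found in 3 of 7 members higher in the entorhinal cortex and 3 of 7 lower ones that had an entry. The letters TATAAA were found in 1 of 30 members (3.33%), against 14.3% of genes, and the cyclic AMP response element TGACGTCA in 0 of 30, against 1.77% of genes. A match is a run of letters and not a shown site.

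Genes that make, clear and relay these transmitters were read beside the receptors: of 76 tested, 24 were higher and 26 lower in the entorhinal cortex, 65.8% together, against 51.8% of all genes. Of 5 genes of breakdown, 2 were higher and 1 was lower, with Bche at 1.34 ± 0.14 and Ache, the main acetylcholinesterase, at -0.65 ± 0.08. Of 8 tested synthesis genes, 1 was higher (Pts, 0.31) and 3 were lower, Ddc most (-0.52). Of 5 transporters, 2 were lower, Slc29a4 most (-0.63), and 0 were higher. Of 12 G protein alpha subunits, 3 were higher and 5 lower, with Gnal, the olfactory and striatal partner of Drd1, at 0.73 ± 0.11 and Gna14 at -0.55. Of 9 adenylyl cyclases, 3 were higher (Adcy8 most, 1.39 ± 0.06) and 3 lower (Adcy9 most, -0.63). Of 15 RGS proteins, which speed G protein shut-off, 8 were higher (Rgs17, 1.004) and 5 lower (Rgs14, -0.95). Of 9 partners of the receptors, 4 were higher (S100a10, 0.89) and 4 lower, with Lynx1, a brake on nicotinic receptors, at -0.88 ± 0.08. Plcb4 (0.55) and Plcb3 (-0.21) were the called genes of 4 phospholipase C beta genes, and of 5 kinases and arrestins 2 were higher (Grk5, 0.51) and 2 lower (Arrb2, -0.32).

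The regional pattern was tested in each genotype. In APP mice 15 of 29 members were called, 6 higher and 9 lower, against 44.3% of all genes (17.9% higher and 26.5% lower). In non-transgenic mice 15 were called, 5 higher and 10 lower, against 36.8% (13.9% and 22.9%). The calls shared 13 members. Htr1b and Htr5a were called in APP mice alone, and Htr2c and Chrnb2 in non-transgenic mice alone, and the Chrnb2 call was lost in 23 of 40 alternatives. The interaction that tests such a difference was not called for any member. Limma called 0 of 14941 genes for that interaction (0%), with 923 genes (6.18%) and 0 members at an unadjusted p under 0.05. The smallest member p was that of Oxtr, whose region difference was 0.32 ± 0.11 in APP mice (adjusted p = 0.026) and 0.63 ± 0.14 in non-transgenic mice (adjusted p = 0.0015). The interaction of Oxtr was -0.31 ± 0.18 (adjusted p = 0.83). The Oxtr call in APP mice was lost without entorhinal APP BDNF array 3 (0.29), hippocampal APP GFP array 2 (0.28) or hippocampal APP BDNF array 3 (0.30).

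**Figure D4:**
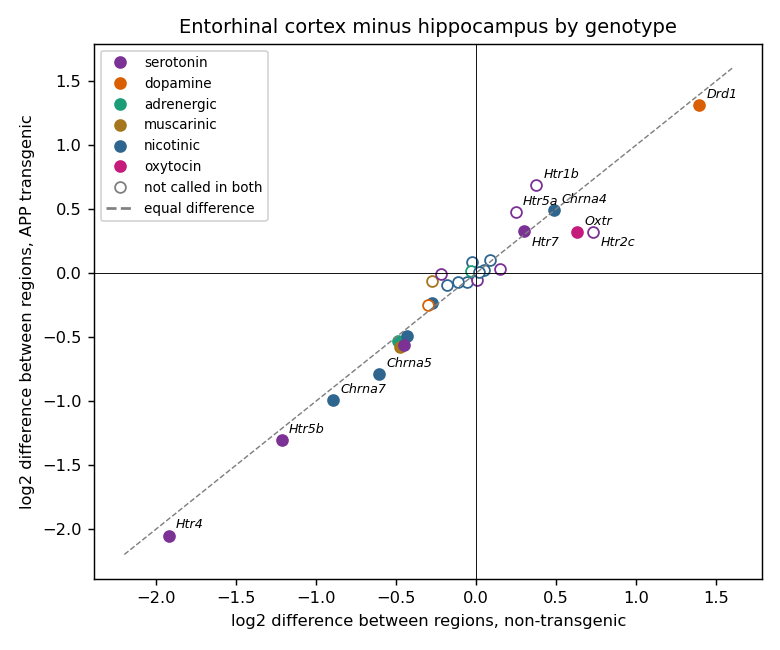
Log2 difference of entorhinal cortex minus hippocampus in APP mice (y axis) against that in non-transgenic mice (x axis) for the 29 tested members, coloured by family; filled points were called in both genotypes and the dashed line marks equal differences. Htr4 lies at -2.05 and -1.92, and Drd1 at 1.31 and 1.39.

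BDNF was compared with GFP in APP mice. No member and no other gene was called in either region: limma called 0 of 14941 genes (0%) in the entorhinal cortex, where 580 genes (3.88%) and 2 members had an unadjusted p under 0.05, and 0 (0%) in the hippocampus, where 793 genes (5.31%) and 1 member did. The 2 entorhinal members were Chrne and Chrng, subunits of the muscle-type receptor. Chrne had 4.67, 4.52, 4.92 and 4.77 on the BDNF arrays and 5.12, 4.99, 5.02 and 5.25 on the GFP arrays. All BDNF arrays lay below all GFP arrays, as for 0.81% of genes, and with both directions counted the groups separated for 2.32% of genes. The difference was -0.37 ± 0.10 (adjusted p = 0.998). Chrng had 4.61, 4.87, 4.99 and 4.99 on the BDNF arrays and 5.17, 5.10, 5.001 and 5.37 on the GFP arrays, -0.29 ± 0.10 (adjusted p = 0.998). Its groups did not overlap either, with 5.001 the lowest GFP and 4.99 the highest BDNF value, and its other probe sets gave -0.05 and 0.05. Htr2c had 9.38, 9.52, 10.28 and 10.13 on the BDNF arrays and 10.20, 10.45, 10.57 and 10.40 on the GFP arrays, -0.57 ± 0.29 (adjusted p = 0.998), with 1 BDNF array above the lowest GFP array.

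In the hippocampus, Oxtr had 7.25, 7.47, 7.14 and 7.25 on the BDNF arrays and 7.003, 6.64, 6.99 and 6.89 on the GFP arrays. The BDNF arrays all lay above the GFP arrays, as for 1.1% of genes, and with both directions counted the groups separated for 2.64% of genes. The difference was 0.40 ± 0.10 (adjusted p = 0.90), and the second probe set gave 0.07 ± 0.09. Non-transgenic hippocampi had 7.03 and 7.10 with GFP and 6.93, 7.20 and 7.17 after sham lesion, values that overlapped both APP groups. In the entorhinal cortex Oxtr had 7.15, 7.22, 7.52 and 7.44 with BDNF and 7.27, 7.60, 7.54 and 7.48 with GFP, groups that overlapped (-0.14 ± 0.20). Chrnb3 had the next smallest p in the hippocampus (0.19 ± 0.09, adjusted p = 0.90, and 0.12 without APP GFP array 2). The BDNF effect in the entorhinal cortex minus that in the hippocampus was called for 0 genes (0%), with 602 genes (4.03%) and 4 members at an unadjusted p under 0.05: Chrne (-0.40 ± 0.13), Chrng (-0.35 ± 0.12), Oxtr (-0.54 ± 0.23) and Htr2c (-0.78 ± 0.37), each with an adjusted p of 0.996.

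**Figure D5:**
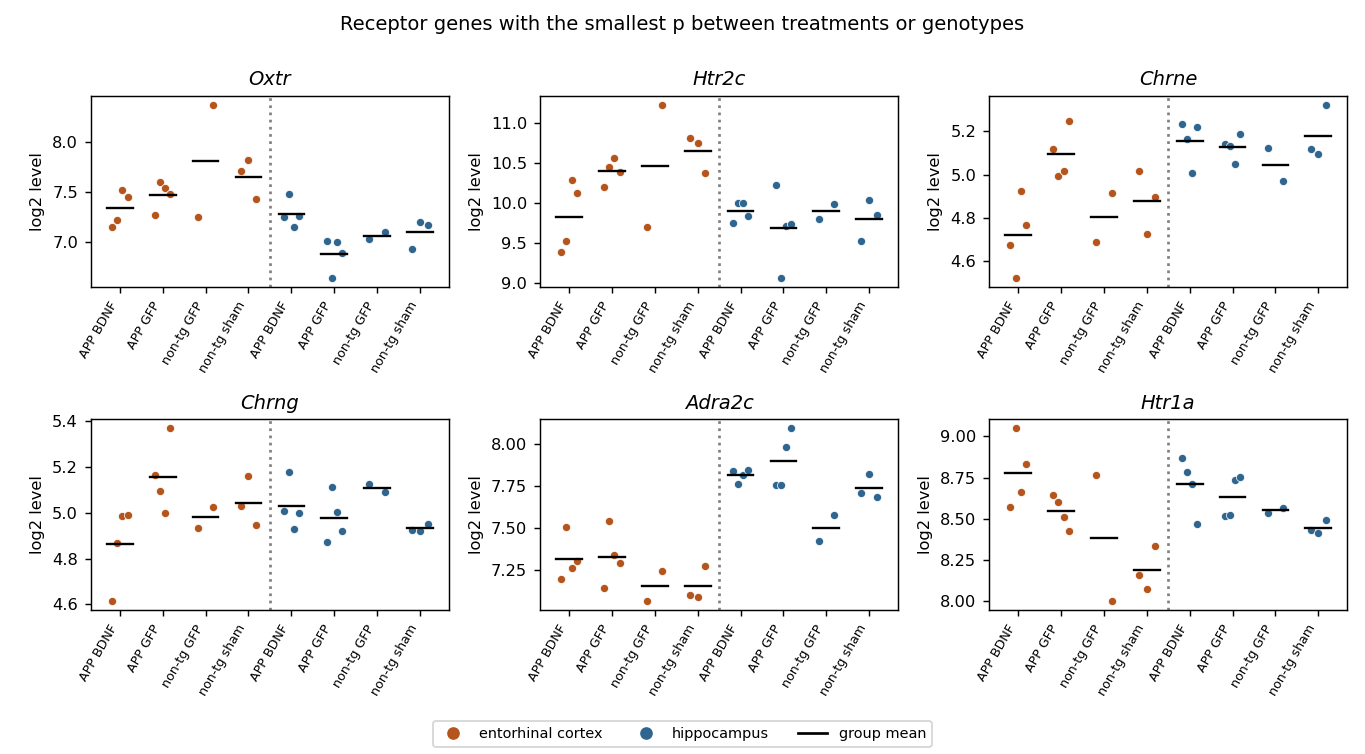
Log2 level (y axis) on every array, by group (x axis), for 6 members with small unadjusted p values within a region, with entorhinal cortex left of the dotted line; points are arrays and short lines group means. In the hippocampus the 4 APP BDNF arrays of Oxtr (7.14 to 7.47) lie above the 4 APP GFP arrays (6.64 to 7.003), and no comparison of groups within a region was called.

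APP mice given GFP were compared with non-transgenic mice, and 0 of 29 members were called in any form of the comparison. The APP groups held arrays both low and high in Xist and the non-transgenic groups only high ones, so comparisons of genotype also differ in this; with Xist as a covariate 0 members were called. Against all 5 non-transgenic arrays, limma called 2 genes (0.0134%) in the entorhinal cortex and 6 (0.0402%) in the hippocampus, and 711 genes (4.76%) with 1 member and 671 genes (4.49%) with 3 members had an unadjusted p under 0.05. In the hippocampus Adra2c had 7.76, 7.75, 7.98 and 8.09 on the APP GFP arrays, against 7.42 and 7.58 with GFP and 7.71, 7.82 and 7.68 after sham lesion in non-transgenic mice. Only sham array 2 reached into the APP range, and the difference was 0.26 ± 0.08 (adjusted p = 0.79). Against the 2 non-transgenic GFP arrays alone it was 0.40 ± 0.10 (adjusted p = 0.99), where 1 gene (0.00669%) was called and 659 (4.41%) with 2 members had an unadjusted p under 0.05. Against all 5, Chrna5 (0.38 ± 0.17) and Oxtr (-0.20 ± 0.09) were the other hippocampal members with an unadjusted p under 0.05. With Xist as a covariate they were 0.23 and -0.10.

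In the entorhinal cortex, Chrne was 0.25 ± 0.10 (adjusted p = 0.94) against all non-transgenic arrays and 0.29 ± 0.12 against the GFP arrays, where 2 genes were called (0.0134%) and 373 (2.5%) with 1 member had an unadjusted p under 0.05. Htr5a followed at 0.25 ± 0.13 and 0.25 ± 0.16. Chrna1 had 0.23 ± 0.10 in the hippocampus against the GFP arrays. Values against this pair of GFP arrays moved with either of them: without GFP array 2 of the region Htr5a was 0.07 and Chrna1 0.09, and without GFP array 1 Chrne was 0.18, Htr5a 0.44 and Chrna1 0.37. Against all 5 non-transgenic arrays Htr5a was 0.16 without sham array 2. Oxtr was -0.25 ± 0.19 in the entorhinal cortex against all non-transgenic arrays and -0.34 ± 0.24 against GFP, and the sign against GFP rested on non-transgenic GFP array 2, without which it was 0.23. The difference of the transgene effect between the regions was called for 0 genes (0%, with 301 genes, 2.01%, and 0 members at an unadjusted p under 0.05), with Chrne at 0.24 ± 0.12 and Htr5a at 0.26 ± 0.16. The Htr5a value was 0.18 without entorhinal sham array 2 and 0.16 without hippocampal APP GFP array 3.

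BDNF-treated APP mice were set against all non-transgenic mice; this comparison shares its control arrays with those of GFP-treated APP mice. In the entorhinal cortex 6 genes (0.0402%) and 0 members were called, with 1966 genes (13.2%) and 4 members at an unadjusted p under 0.05. Htr1a had 8.57, 9.05, 8.66 and 8.83 on the APP BDNF arrays, against 8.76 and 7.998 with GFP and 8.16, 8.07 and 8.33 after sham lesion. Only 1 of the 5 non-transgenic arrays reached the BDNF range, and the difference was 0.51 ± 0.14 (adjusted p = 0.27). The APP GFP arrays had 8.64, 8.60, 8.51 and 8.43. Htr2c (-0.75 ± 0.27), Htr1b (0.62 ± 0.25) and Htr5a (0.27 ± 0.13) were the other 3 members. Here too the APP arrays were both low and high in Xist and the non-transgenic arrays only high. Htr2c lies on the X chromosome. The dimmer probe set of Htr1b ran the other way, with 6.92, 6.72, 6.73 and 6.74 on the APP BDNF arrays. On the non-transgenic arrays it had 6.79 and 7.12 with GFP and 6.87, 7.03 and 6.94 after sham lesion. In the hippocampus 8 genes (0.0535%) and 0 members were called, with 986 genes (6.6%) and 3 members at an unadjusted p under 0.05: Htr1a (0.22 ± 0.08), Adra2c (0.17 ± 0.08) and Chrna7 (0.25 ± 0.11). Oxtr was -0.38 ± 0.19 in the entorhinal cortex and 0.20 ± 0.09 in the hippocampus.

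The GFP vector was compared with sham lesion in non-transgenic mice, 2 arrays against 3. In the entorhinal cortex 3 genes (0.0201%) and 0 members were called, with 441 genes (2.95%) and 0 members at an unadjusted p under 0.05. Chrna4 (0.40 ± 0.19) and Chrnd (-0.20 ± 0.13) had the smallest member p values; without GFP array 1 they were 0.17 and -0.05, and without GFP array 2 they were 0.62 and -0.36. Chrnd was -0.12 without sham array 1. In the hippocampus 5 genes (0.0335%) and 0 members were called, with 1344 genes (9%) and 2 members under that p: Chrna1 (-0.25 ± 0.11) and Adra2c (-0.24 ± 0.10). Chrna1 was -0.11 without GFP array 2 and -0.39 without GFP array 1. Adra2c had 7.42 and 7.58 with GFP and 7.71, 7.82 and 7.68 after sham lesion. Both GFP arrays lay below all sham arrays, as for 18.9% of genes in this comparison of 2 arrays with 3. With both directions counted, the groups separated for 29% of genes. Oxtr was 0.15 ± 0.25 in the entorhinal cortex and -0.04 ± 0.13 in the hippocampus. The 76 genes of synthesis, clearance and signalling had 0 called in the 13 comparisons other than those between regions over all groups or within a genotype.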

How the data were processed

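The values are log2 intensities that the authors deposited as 1 table of 45101 probe sets by 26 arrays, made with RMA (background correction, quantile normalization and summary of probes) per the submitters' processing notes. Those notes give neither its version nor a genome build. RMA gives arrays a near-common distribution, so a shift shared by most genes cannot be seen. Symbols came from the platform annotation (34958 probe sets with 1 symbol, 932 with several, 9211 with none), 34754 of them updated through a GRCm38.p6 gene table. Genes below the 30th percentile of probe set means (4.33) were not tested, leaving 14941 of 18194. Groups came from the labels.

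The fits used limma 3.58.1 (R 4.3.3), with 13 arrays per region, or all 26 for region comparisons and differences of effects between regions; the region difference is the equal-weight mean over 4 groups. Tests were 2-sided with Benjamini-Hochberg adjustment over all genes, called under 0.05. The p-values measure the spread between these arrays. Scripts were tested on simulated data. The members and gene lists were chosen with earlier results of these data known. Full values are given for up to 8 members per direction with the largest called region difference, the 2 smallest p in each other comparison, Oxtr throughout, the extremes of each family by level, and the largest called change per direction in each pathway list; further members were named after their values were seen. Alternatives were other filters, normalizations, probe set choices, variance models, array weights, samples in the fit, replicate block, Xist and choroid plexus covariates and leaving out each array. The myelin covariate, the relations to myelin and leaving out both entorhinal arrays low in myelin were chosen after seeing the data. Promoter runs are the 250 bases before a RefSeq start.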

Additional observations from a re-analysis of the deposited data

Results flagged for a closer look

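Over 116 sets of 4 arrays (29 members in 4 groups), 3 held an array whose gap to the others was above the 95% limit of Dixon's test, where about 5.8 would be flagged by chance at 1 in 20. Hippocampal APP GFP array 3 gave 2 of them: Drd1 was 5.99 there and 7.09 to 7.24 on the other 3 arrays, and Chrna5 was 5.51 there and 6.10 to 6.17 on the others. The third was Chrnb3 on entorhinal APP BDNF array 4, at 4.21 against 4.61 to 4.67.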

How the results depend on the processing

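Replicate numbers did not pair the arrays: same-numbered entorhinal and hippocampal arrays of a group had correlated deviations of -0.49 to 0.48 over 13 pairs, 3 of them above 0.1. The non-transgenic GFP pairs gave the same value (0.47), since deviations within a group of 2 arrays mirror each other. Xist class, high or low, differed within 6 of the 13 pairs. The labels do not say whether both regions came from the same mice, and the main fits treated the arrays as separate. With the replicate block, 18 members were called between the regions over all groups, 15 in APP mice and 14 in non-transgenic mice, and 0 in the other comparisons. Because the numbers did not pair the arrays, this block cannot test whether regions of the same mouse depend on each other. Leaving out each array gave 17 to 19 members between the regions, 14 to 16 in APP mice, 12 to 16 in non-transgenic mice and 0 in each other comparison; where this left 1 non-transgenic GFP array, it was assumed to vary like the other groups. The other alternatives gave 12 to 18 members between the regions, 12 to 17 in APP mice and 7 to 17 in non-transgenic mice. Of 119 alternatives for these 3 counts, 118 were within 1.5 times the reported count, the exception being the 7 in non-transgenic mice with the myelin covariate. This limit is wide: a count of 12 against 18 over all groups, as with the myelin covariate, lies within it. The counts of 0 elsewhere cannot show stability. With that covariate Htr2c reversed to -0.47 and Oxtr to -0.0867 over all groups, and Oxtr to -0.19 and Htr2c to -0.56 in APP mice, and Oxtr to -0.00101 and Htr2c to -0.35 in non-transgenic mice, none called. Drd1 in non-transgenic mice was 0.87 (adjusted p = 0.10) with it. Among the members and comparisons recomputed, the other changes of sign were those of Oxtr in comparisons that were not called. APP GFP minus non-transgenic GFP in the entorhinal cortex became 0.23, and GFP minus sham there -0.41, without both entorhinal arrays low in myelin; leaving out each array gave -0.90 to 0.23 and -0.41 to 0.72. The transgene effect in the entorhinal cortex minus that in the hippocampus (-0.04) became 0.0410 with array weights, 0.000567 with the choroid plexus covariate, 0.0425 with the myelin covariate and 0.12 without those 2 arrays, and -0.16 to 0.12 on leaving out each array. GFP minus sham in the hippocampus (-0.04) ranged from -0.12 to 0.0115 on leaving out each array. The call of Htr2c between regions was lost with the mean of its probe sets (0.28) and without those 2 arrays (0.29). In non-transgenic mice the Htr2c call was lost with the mean of probe sets (0.44) and the choroid plexus covariate (0.65), and calls were gained by Htr5a (5 alternatives, 0.28 to 0.34) and, with the mean of probe sets, by Htr1b (0.28); in APP mice Chrnb2 gained one that way (-0.14). Chrnb2 was lost without them (-0.11), and in 23 of 40 alternatives in non-transgenic mice. The cause was not tested. Dim probe sets limit the untested members: with no filter the one call among the 9 was Htr6, lower in the entorhinal cortex of APP mice (-0.25, adjusted p = 0.016).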

Other observations

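Hippocampal APP GFP arrays 1 and 3 held the most regional extremes: each was the highest or the lowest hippocampal array for 11 of the 29 tested members. Array 3 had the highest Chrm1 (10.25), Drd2 (5.99), Chrna4 (7.12) and Chrm3 (5.01), and the lowest Drd1 (5.99), Htr5a (6.12) and Htr5b (6.29). In the entorhinal cortex, APP BDNF array 2 was an extreme for 9 members, with the highest Htr1b (8.52), Htr1a (9.05), Htr5a (7.17) and Htr7 (7.14). These values were singled out after they were seen.

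Across the 13 hippocampal arrays, Oxtr and Htr2c also ran against the mean of the myelin genes, less closely than in the entorhinal cortex: r was -0.52 for Oxtr (permutation p = 0.064, adjusted p = 0.38) and -0.55 for Htr2c (permutation p = 0.044, adjusted p = 0.36), with rho of -0.67 and -0.70. Htr1d was the one entorhinal member whose r had an adjusted permutation p under 0.05 (r = -0.78, permutation p = 0.0012, adjusted p = 0.048; rho = -0.78, adjusted p = 0.052), and over 11 arrays its r was -0.77. It was also the dimmest tested member, with a mean of 4.35 against the filter at 4.33 and only 4.19 to 4.55 on the entorhinal arrays. The relation was not computed for the other Htr1d probe sets. The 58 relations gave 1 such member in each region.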
